A study of Rattus norvegicus with 33 samples.

Results

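The cytosolic ribosomal protein genes are the genes for the proteins of the large (Rpl) and small (Rps) subunits of the cytoplasmic ribosome. They were chosen by name alone: a probe set with exactly 1 symbol, starting with Rpl or Rps and a digit, or being Rpsa, Rplp0, Rplp1 or Rplp2, with the Rps6k kinases, pseudogene symbols (-ps) and symbols ending in l left out. For genes with several probe sets, the brightest on average stands for the gene. The rule found 57 genes of 18166 measured. Of these, 37 belong to the large subunit and 19 to the small one, and Rps19bp1, which encodes a protein that binds Rps19, is in the set by its symbol only. The data come from the fifth caudal mammary glands (left and right) of female Sprague-Dawley rats, an outbred strain, that served as vehicle controls of a chemical study and were gavaged with olive oil. Total RNA of whole glands was hybridised to 33 Affymetrix whole-transcript arrays at 6 stages. The 3 young stages are pre-pubertal (postnatal day 21, n = 10), peri-pubertal (day 42, n = 5) and pubertal (day 63, n = 5). Lactating glands came from lactation day 28, labelled end of lactation, which was postnatal day 146 (n = 3). Lactation below means this late stage. Glands of parous and of nulliparous adults were taken at day 181 (n = 5 each). The labels give 3 batches: batch 1 with 18 arrays of every stage but lactation, batch 2 with 11 arrays of the 3 young stages and lactation, and batch 3 with 2 nulliparous and 2 parous arrays. Every batch 3 array used RNA from the Zymo kit, chosen for some of the fattier adult glands, and all others the Promega kit, so batch 3 and kit cannot be told apart. All rats of a stage were killed on 1 day, at random points of the oestrous cycle. The sample notes give 5 animals a stage whereas the series record gives 10 pre-pubertal ones. If the 10 arrays came from fewer animals, the pre-pubertal errors are too small.

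A ribosome needs nearly all of these proteins in equal numbers, and their mRNAs are among the most abundant in most cells. These mRNAs typically begin with a cytosine followed by a run of pyrimidines, the TOP motif, through which the growth kinase mTORC1 and the RNA-binding protein Larp1 set how well they are translated. In the mammary gland, epithelium is sparse in fat and stroma before puberty, grows out as ducts during puberty, and makes large amounts of a few milk proteins in lactation.

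Start-site windows of 6 members are shown because these members carry the stage and batch results below, with and without a TOP-like run. Each is 30 bases of RefSeq GRCr8 on the gene's strand, with 15 bases before the annotated start base and 15 from it on. Capitals mark the longest run of C and T that begins with C inside the window.
Rpl29, chr8:115947628-115947657, plus strand: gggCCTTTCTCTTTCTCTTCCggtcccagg
Rplp2, chr1:205975906-205975935, plus strand: CCTTTCgccgccggacgccgccgaggtcgc
Rpl28, chr1:78083518-78083547, minus strand: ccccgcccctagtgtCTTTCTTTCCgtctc
Rps3a, chr2:173827028-173827057, minus strand: gagttgtacttccgCCCTTTTggctctcag
Rpl6, chr12:41011676-41011705, minus strand: tatttttacatcaCTagatggcgggtgaaa
Rpl3, chr7:113507976-113508005, minus strand: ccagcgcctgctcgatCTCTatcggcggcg
The run was 18 bases in Rpl29, 10 in Rpl28, 7 in Rps3a and 6 in Rplp2, against 4 in Rpl3 and 2 in Rpl6. The Rplp2 run lies wholly before the annotated start base and so outside the annotated mRNA. In Rpl6 the letters atg stand almost directly after the annotated start base, so its window may miss the true start of the mRNA. The table of start sites held 49 of the 57 members. A run of 6 or more was found in 36 of the 49 (73.5%) and in 21.1% of 19005 protein-coding genes. A C exactly at the annotated start followed by 4 pyrimidines stood in 17 members (34.7%) and in 2.44% of all genes. The letters CTTTCC, on either strand of the 300-base promoter window, stood in 25 members (51%) and in 26.3% of all genes. CTTTCC can lie inside a run counted above, so the counts overlap. These are matches of letters and depend on where RefSeq places the start.

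Most members were among the brightest probe sets of the array. The values are log2 RMA values, so a difference of 1 is a 2-fold change, and levels of different probe sets are not compared as amounts of RNA. The mean over all arrays was above 12 in 23 members, which put each of those 23 at or above the 99.2nd percentile of genes, between 8 and 12 in 22, and below 8 in 12. Rps29, a small-subunit protein, had the highest mean at 13.50, and Rpl41, the shortest protein of the ribosome, followed at 13.24. The lowest means were 5.24 for Rps9 and 5.47 for Rpl5, the carrier of 5S rRNA. Testing required a value over 7.645, which is the median level of single-symbol probe sets, in 3 or more arrays, and 53 members met it. Rpl5, Rpl26, Rps12 and Rps6, the target of the S6 kinases, did not, and 7 of the 53 passed only through the batch 3 arrays: Rpl15, Rpl27a, Rpl37a, Rps4y2, Rps9, Rps16 and Rps27. The RefSeq table holds 79 symbols that fit the rule, and 22 of them had no probe set of their own here, among them Rplp1, Rps27a, Rpl22 and Rps4x of a panel of 16 well-known genes that is named whatever its values. Of the 22, 13 stood on probe sets shared with near copies. In whole glands, fewer cells of a type and less RNA per cell cannot be told apart.

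Ribosomal protein genes varied little over the 6 stages. In the model with stage and batch terms, limma's F test over the stages called 17 of 53 members at an adjusted p under 0.05, or 32.1%, against 65.9% of the 10986 genes tested. The median range of the fitted stage levels was 0.29 for members and 0.54 for all genes. No member ranged over more than 1, while 22.5% of all genes did. The large subunit held 14 of the 17 called genes, of 35 tested, and the small subunit 3 of 17 tested. Members also scattered less around the fit, with a median residual SD of 0.14 against 0.19. Rplp2, an acidic stalk protein, had the smallest p of the members (adjusted p = 1.5e-07, limma), followed by Rpl29, Rpl6 and Rpl36. The largest p values belonged to Rpl8 and Rps9, to Rpl7 and to Rpl11, which with Rpl5 restrains Mdm2 (adjusted p between 0.60 and 0.64). Among the 53 members, the lowest fitted stage was lactation for 24 and nulliparous for 10. The highest was pubertal for 17, parous for 14 and pre-pubertal for 10. Over all genes, lactation was the lowest stage for 29.5% and nulliparous for 12.3%. The highest stage over all genes was pubertal for 8.5%, parous for 7.84%, pre-pubertal for 24.5% and lactation for 39.9%. Lactation was the highest for only 7 members.

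**Figure D1:**
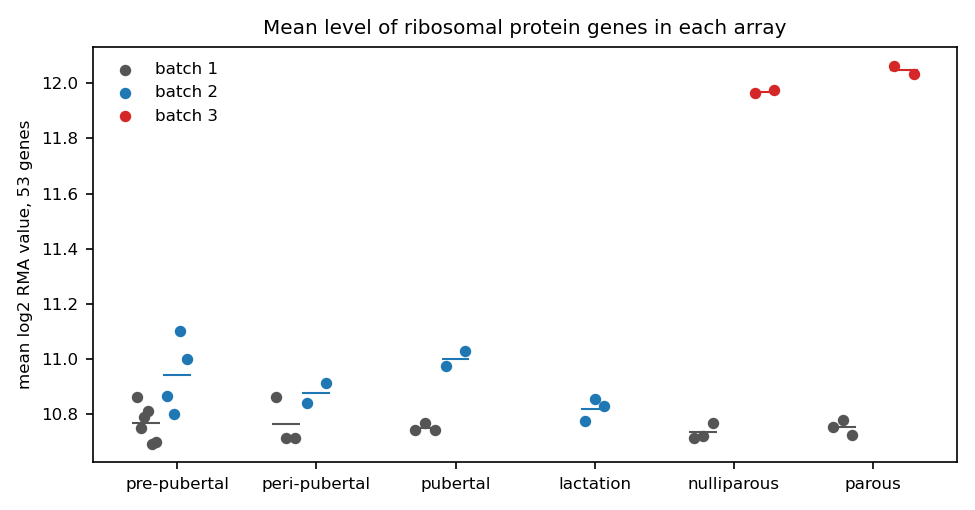
Mean log2 RMA value of the 53 tested ribosomal protein genes (vertical axis) in each of the 33 arrays, by stage (horizontal axis) and batch (colour); short lines are means of a stage in a batch. The 29 arrays of batches 1 and 2 lie between 10.69 and 11.10, and the 4 batch 3 arrays between 11.96 and 12.06. The 53 genes include 7 that passed the low-value filter only through batch 3, which widens the batch 3 gap.

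The mean over the 53 members was 10.76 ± 0.050 in batch 1 (SD, n = 18), 10.91 ± 0.10 in batch 2 (n = 11) and 12.01 ± 0.048 in batch 3 (n = 4). The batch 3 arrays did not overlap with any other array. This mean includes the 7 members that passed the filter only through batch 3 and so had to be high there. Over the 46 others the means were 11.46 ± 0.054, 11.55 ± 0.12 and 12.49 ± 0.059 in batches 1, 2 and 3 (SD). Their lowest batch 3 array stood at 12.43, against at most 11.58 in batch 1 and 11.76 in batch 2. Over all 53 members and within batch 2, the pubertal arrays had means of 10.97 and 11.03, and the lactation arrays 10.78, 10.86 and 10.83. Lactation was thus below both pubertal arrays of its batch, but 2 of its 3 arrays lay inside the range of the 4 pre-pubertal arrays of batch 2, from 10.80 to 11.10. The fitted stage means of the members lay between 10.64 in lactation and 10.78 in pubertal glands.

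Members deviated together in single arrays. In 9 arrays, 42 or more of the 53 lay on 1 side of the values fitted for their stage and batch, while between 38.3% and 54.5% of all genes lay above in these arrays. Pre-pubertal array 9 had 48 members above, and pre-pubertal array 10, also of batch 2, had 43. In the other 2 pre-pubertal arrays of that batch, numbers 4 and 5, 42 and 43 members lay below. In batch 1, 42 members lay above in pre-pubertal array 1 and 43 lay below in pre-pubertal array 8. The mean of 9 B cell markers was 10.02, 9.38 and 9.95 in pre-pubertal arrays 9, 10 and 1, against 8.05, 8.43 and 6.66 in arrays 4, 5 and 8. Among these pre-pubertal arrays, those with many members above thus had more B cell signal than those with many below. This split was not particular to B cells. In the same order of arrays, the T cell marker means were 10.25, 9.51 and 10.15 against 7.93, 8.34 and 6.77. The luminal marker means went the other way, at 7.53, 7.76 and 7.94 against 8.50, 8.09 and 9.37. The remaining pre-pubertal arrays did not all follow this split. Array 6, with 41 members above, had a luminal mean of 8.575, higher than arrays 4 and 5. Array 2 had the lowest luminal mean, 6.72, and a B cell mean of 9.29, but 22 members above and 31 below. In other stages the picture was mixed too. Nulliparous array 3 had 42 members above and a B cell mean of 10.11, but parous array 4 had 34 above at 10.04 and parous array 3 had 23 above at 9.70. Peri-pubertal arrays 1 and 4, with 43 members above and 43 below, had B cell means of 6.71 and 6.93. Their skeletal muscle marker means were 10.09 and 9.53, against 6.85 to 7.01 in the other 3. The part of these cells in the shared deviations was not tested.

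From day 21 to day 42, as ducts begin to grow, 3 of 53 members fell and none rose, against 15.2% of all genes that fell and 17.1% that rose. The median difference of the members was -0.03 and that of all genes 0.00. All 3 belong to the large subunit. Rplp2 stood between 12.39 and 12.51 in the 6 pre-pubertal arrays of batch 1 and at 12.08, 12.24 and 12.21 in the peri-pubertal ones. In batch 2 it stood between 11.85 and 12.04 before and at 11.66 and 11.71 at day 42. The 2 stages did not overlap in either batch, and the fitted difference was -0.28 ± 0.045 (SE, limma adjusted p = 2.7e-05). A further Rplp2 probe set differed by -0.27, untested. Rpl28 fell by 0.27 (SE 0.098, limma adjusted p = 0.036), and its values at these stages were at most 8.08. Rpl30 fell by 0.18 (SE 0.059, limma adjusted p = 0.022). Leaving out any of 7 arrays ended the call of Rpl28, and leaving out peri-pubertal array 2 or 5 that of Rpl30. Markers of other cells moved at the same step: 17 of 18 luminal epithelium markers rose, and 9 of 9 B cell, 11 of 12 T cell, 14 of 15 white adipocyte and 6 of 8 endothelium markers fell. Of 10 fibroblast markers 4 rose, and of 8 milk protein genes 6 rose and 1 fell. The luminal marker mean was 6.72 to 9.37 in pre-pubertal and 9.25 to 9.92 in peri-pubertal arrays. With that mean as a covariate none of the 3 members was called, Rplp2 at -0.22 with a limma adjusted p of 0.10. With the B cell mean as a covariate 1 was. The luminal mean itself differed between the stages, and the share of all genes called in these fits is not given here. The lost calls are thus not shown to be particular to the members.

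From day 42 to day 63, no member rose or fell by limma, while 0.719% of all genes rose and 0.501% fell. At an unadjusted p under 0.05 there were 6 members, or 11.3%, against 14.8% of all genes. All 6 were higher at day 63: Rpl9, Rpl35a, Rpl3, Rps19, Rpl23 and Rpl30, by 0.13 to 0.23. These were named after their values were seen. Without peri-pubertal array 1, which stood high for 43 members, 2 members were called, along with 3.83% of all genes. The median member difference was -0.03 within batch 1 and 0.14 within batch 2.

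The comparison of lactation with puberty called the most members of the 6 stage comparisons. Against pubertal glands 15 members fell and 1 rose, while 16.9% of all genes fell and 23.8% rose. The member median was -0.16 and the all-gene median 0.06, and 39 of the 53 members were lower. The 2 subunits had like medians, -0.16 for the large and -0.17 for the small, with 12 of 35 and 3 of 17 members falling. Lactation arrays are all of batch 2, and so were 2 of the 5 pubertal arrays. A fit of batch 2 alone gave a median of -0.20, with 10 members lower and 1 higher. Arrays centred on their own medians, which raises this comparison by 0.087, gave 11 falls and 5 rises among members and a median of -0.07 beside 0.15 for all genes. Of all genes, 13.3% fell and 31.3% rose after this centring. Without a batch term 6 fell and none rose. The shares of all genes called in batch 2 alone and without a batch term are not given here.

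Rpl6 changed most. Its lactation arrays stood at 11.10, 11.30 and 11.24, and the batch 2 pubertal arrays at 11.84 and 11.87. All 3 lactation arrays lay below the other 8 arrays of batch 2, of which the lowest was 11.72. The fitted difference was -0.66 ± 0.11 (SE, limma adjusted p = 2.6e-05), or 1.58-fold lower. A further probe set of Rpl6 differed by -0.22, untested.

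Rpl29, which binds heparin and heparan sulfate as a free protein, stood at 11.57, 11.55 and 11.41 in lactation and at 12.07 and 12.10 in the pubertal arrays of batch 2. Again all 3 lactation arrays lay below every other batch 2 array, of which the lowest was 11.80. The difference was -0.56 ± 0.082 (SE, limma adjusted p = 4.7e-06). Rpl23a, which lies at the mouth of the exit tunnel for new proteins, stood at 11.58, 11.52 and 11.32 against 11.80 and 12.02. Its difference was -0.42 ± 0.091 (SE, limma adjusted p = 0.00058), and no other batch 2 array was as low.

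The other 12 members that fell did so by 0.16 to 0.41: Rps15, Rpl35a, Rpl39, Rpl30, Rps3a, Rpl9, Rpl3, Rpl23, Rps2, Rpl21, Rpl35 and Rplp2. Of the panel, Rpl3, which helps form the peptidyl transferase centre, fell by 0.33 (limma adjusted p = 0.0032) and Rpl39, a small protein of the exit tunnel, by 0.38 (limma adjusted p = 0.00089). Rplp2 fell by 0.16 (limma adjusted p = 0.044). Rps19, which is mutated in Diamond-Blackfan anaemia, differed by -0.31 without passing (limma adjusted p = 0.055). Rpl4 differed by -0.13 and Rpl11 by -0.11, and neither passed. The stalk base Rplp0 (0.09), Rpsa, also known as the laminin receptor (-0.09), and Rpl41 (0.16) did not pass either.

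Rpl28 was the 1 member that rose, by 0.43 ± 0.14 (SE, limma adjusted p = 0.014). It stood at 7.21, 7.33 and 7.02 in lactation and at 6.77 and 6.48 in the batch 2 pubertal arrays, all below the floor of 7.645. The lactation values overlapped those of the younger batch 2 arrays, from 6.93 to 7.34. Leaving out pubertal array 5 or lactation array 2 ended the call. Rps27 differed more, by 0.61 ± 0.25 (SE), but did not pass (limma adjusted p = 0.054). It met the filter only through the batch 3 arrays. Its values were 7.30, 7.84 and 6.85 in lactation and 6.54 and 7.26 in the batch 2 pubertal arrays, mostly below the floor.

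**Figure D2:**
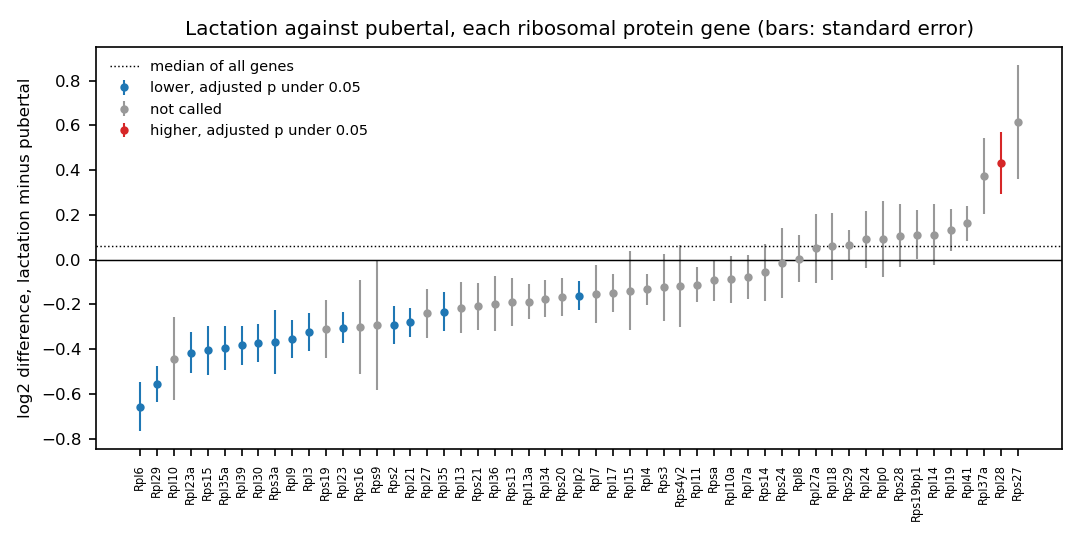
Log2 difference of lactating minus pubertal glands (vertical axis) for each of the 53 tested ribosomal protein genes (horizontal axis, ordered by the difference), as fitted with batch terms; bars are 1 standard error and the dotted line is the median of all tested genes. The 15 genes that fell lie from -0.66 to -0.16, and Rpl28 at 0.43 is the 1 that rose.

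The lactation arrays held other cells in other proportions. All 10 fibroblast markers and 14 of 15 white adipocyte markers fell against pubertal glands, with medians of -2.10 and -0.93, while 8 of 18 luminal markers rose and 1 fell. The fibroblast marker mean was 9.95 to 10.36 in lactation and 11.82 to 12.17 in pubertal arrays, the luminal mean 10.30 to 10.61 and 9.60 to 10.02. Of 8 milk protein genes, 4 rose, and their mean was 13.59 to 13.81 in lactation against 9.95 to 12.23 in pubertal arrays. No B or T cell marker was called, but all 9 B cell markers were lower (median -1.24), and so were all 12 T cell markers (median -0.40). With the luminal mean as a covariate, 12 members were lower and 2 higher, and with the B cell mean the counts were the same. The share of all genes called with these covariates is not given here. The part of fibroblasts and adipocytes was not tested.

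Like all genes, of which 23.8% rose and 16.9% fell, most other lists of the translation machinery held more rises than falls in lactation. After centring, 31.3% of all genes rose and 13.3% fell, and these lists were not counted anew. Of 51 ribosome biogenesis factors, which make and process rRNA, 28 rose and none fell, with a median of 0.39. Utp20, of the small-subunit processome, rose by 0.77 ± 0.10 (SE, limma adjusted p = 1.1e-06), and Polr1e, a subunit of RNA polymerase I, by 0.72 ± 0.097 (SE, limma adjusted p = 1.3e-06). Of 19 cytosolic aminoacyl-tRNA synthetases, which load tRNAs, 13 rose and none fell, with a median of 0.48. Here and in the lists that follow, the named genes are those of smallest adjusted p, not of largest difference. They were Iars1 (0.95) and Aars1 (0.86). Of 25 genes of mTORC1 and translational control, 13 rose and 1 fell. These included Eif4ebp2, a repressor of translation initiation (0.73), and Larp1 (0.64). Among 20 initiation factors 9 rose and 1 fell, with Eif3c and Eif2b4 (0.51 each) among the rises. Of 26 mitochondrial ribosomal proteins 9 rose (34.6%) and none fell, with a median of 0.20. The rises included Mrps6 (1.13) and Mrps18b (0.63).

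Among elongation factors and other genes with TOP mRNAs, 5 of 17 fell and 1 rose, with a median of -0.10. Of all genes 16.9% fell and 23.8% rose. Nap1l1, a histone chaperone, fell by 0.41 (limma adjusted p = 0.00039), and Eif3l rose by 0.31 (limma adjusted p = 0.0091). Among ribosomal proteins that the symbol rule does not reach, Fau, the gene of Rps30, rose by 0.72 ± 0.14 (SE, limma adjusted p = 0.00018). Rack1, the scaffold on the small subunit, differed by -0.14 and did not pass. Members with a TOP-like run near the start had a median of -0.16 (34 tested, 10 lower and 1 higher), and those without one -0.20 (11 tested, 3 lower).

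**Figure D3:**
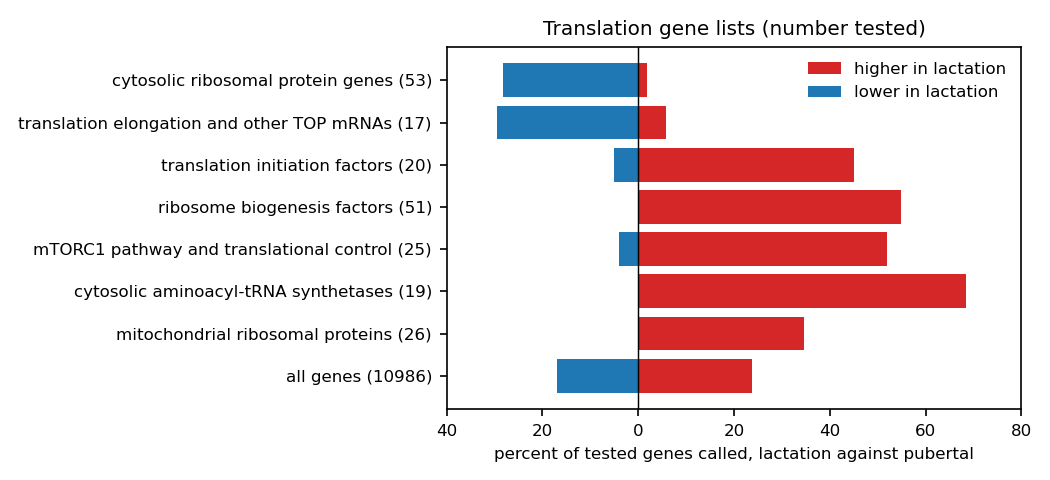
Percent of tested genes called in lactation against pubertal glands (horizontal axis, higher to the right in red and lower to the left in blue) for each list of translation genes and for all genes; numbers tested are in brackets. Of the ribosomal protein genes 15 of 53 were lower and 1 higher, while of the biogenesis factors 28 of 51 and of the tRNA synthetases 13 of 19 were higher and none lower.

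Probe sets that the rule leaves out were read for the same comparison. Symbols of copies and paralogs ending in l or -ps numbered 138 genes, 67 of them tested. Of these, 38 fell and 1 rose in lactation, with a median of -0.46, against 15 and 1 of 53 members. Probes of such near-identical copies can bind the parent genes' RNA as well, so the source of their signal is uncertain. The 1 that rose was Rpl7l1, a paralog of Rpl7 (0.41, limma adjusted p = 0.0084). Rpl10l1 did not pass (-0.09), and Rpl3l, Rpl22l1 and Rpl39l1 were below the floor, with means of 5.63, 4.93 and 6.39. Rps4y2, a paralog of Rps4x that the rule keeps, differed by -0.12 and did not pass. Probe sets shared by several symbols were lower in lactation in 26 of 29 above the floor, with a median of -0.17. Of 17 members with several probe sets above the floor, all probe sets of a gene were lower in 14. In Rpl41 and Rps29 the probe sets differed in sign: 0.16 and -0.42 for Rpl41, and 0.06, -0.21 and -0.37 for Rps29. In Rpl10 they differed in size, -0.44 and -0.02.

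Parous glands stood above lactating ones for 11 members and below for none, against 12.1% of all genes higher and 20.7% lower. The member median was 0.13 and the all-gene median -0.06. These stages share no batch, so the difference rests on batch terms set by the other stages. It also shares the lactation arrays with the comparison above, and is no second measurement of them. Rpl29 rose by 0.74 ± 0.094 (SE, limma adjusted p = 1.2e-06), Rpl6 by 0.71 ± 0.13 (SE, limma adjusted p = 9.9e-05) and Rpl10, which joins the large subunit late in its assembly, by 0.68 ± 0.21 (SE, limma adjusted p = 0.015). Rpl10 did not pass without lactation array 3. Rplp2, Rps15, Rps3a, Rpl23a, Rpl30, Rpl21, Rpl35a and Rpl13 rose as well. Centring each array on its median gave 7 higher and 3 lower, with 9.85% of all genes higher and 27.3% lower. Between the same stages 18 of 51 biogenesis factors, among them Utp20 (-0.68) and Sbds (-0.76), and 10 of 19 synthetases, among them Rars1 (-0.67) and Sars1 (-0.59), fell, and none of either list rose. Of fibroblast markers 10 of 10 and of adipocyte markers 11 of 15 rose, and 9 of 18 luminal markers fell. All 9 B cell markers were higher in parous glands (median 2.01, 3 called), and so were all 12 T cell markers (median 1.83, 1 called).

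Nulliparous adults were lower than pubertal rats for 4 members and higher for none, against 2.39% of all genes lower and 1.88% higher. The member median was -0.07 and that of all genes -0.02. All 4 are large-subunit genes. Rpl36 stood at 11.80, 11.62 and 11.42 in the nulliparous arrays of batch 1 and at 12.13, 12.18 and 11.92 in the pubertal ones, without overlap. It fell by 0.50 (SE 0.11, limma adjusted p = 0.0086). Rpl3 stood at 12.87, 12.79 and 12.74 against 13.05, 13.04 and 13.07 and fell by 0.36 (SE 0.077, limma adjusted p = 0.0064). Rpl39 stood at 12.91, 12.86 and 12.96 against 13.11, 13.04 and 13.28 and fell by 0.33 (SE 0.079, limma adjusted p = 0.014). Rpl9 fell by 0.26 (limma adjusted p = 0.047). Batch 1 is the only batch with arrays of both stages. In batch 1 alone 1 member was called and the member median was 0.01, on the other side of 0. The share of all genes called in batch 1 alone is not given here. Without pubertal array 3 or without nulliparous array 3, 2 were called, along with 1.86% and 2.38% of all genes. In the first case Rpl39 and in the second Rpl36 (adjusted p = 0.055) was no longer called. Of the fibroblast markers, 5 of 10 fell in this comparison. Eif4b and Hnrnpa1, both with TOP mRNAs, fell by 0.52 and 0.48.

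Parous and nulliparous adults of the same age did not differ in any member by limma, as in nearly all genes: 0.0091% of all genes were higher and 0.0091% lower. The member median was 0.05, and 9 members, or 17%, had an unadjusted p under 0.05, against 6.08% of all genes. Rpl36 had the smallest of these (0.31 ± 0.10, SE, limma adjusted p = 0.56). Its 3 parous arrays of batch 1 stood at 12.08, 12.01 and 12.12, above all 3 nulliparous ones. In batch 3 it stood at 12.40 and 12.33 in parous and at 12.27 and 12.31 in nulliparous rats. Rpl29 stood at 12.56, 12.63 and 12.50 in parous and 12.32, 12.40 and 12.47 in nulliparous arrays of batch 1, and at 12.77 and 12.75 against 12.60 and 12.60 in batch 3. The groups did not overlap in either batch, but the difference of 0.17 ± 0.066 (SE) did not pass (limma adjusted p = 0.71). Rpl4 differed by 0.17 (limma adjusted p = 0.56).

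Batch 3 held the largest differences of the members in any of the 8 comparisons. In batch 3 against batch 1, within the adult stages that both hold, 44 of 53 members rose and 2 fell, while 33% of all genes rose and 44.4% fell. The member median was 1.13 and the all-gene median -0.17. Centring each array on its median raises all genes of this comparison by 0.163 and gave 49 rises and 1 fall. Of all genes, 38.4% rose and 38.5% fell after it. A member that passed the filter only through batch 3 had to be high there. Without those 7, 37 of 46 members rose and 2 fell, with a median of 0.82. Rps3a, of the small-subunit platform, stood between 7.84 and 8.54 in batch 1, between 8.06 and 8.86 in batch 2, and at 11.69, 11.79, 11.89 and 12.03 in batch 3. It rose 11.1-fold in batch 3, by 3.47 ± 0.12 (SE, limma adjusted p = 3.0e-20), and its batch 3 arrays overlapped no other array. Rps27, the metallopanstimulin of the small subunit, and Rps16 are among the 7, so for this comparison their levels are a description with no test. Rps27 stood between 5.09 and 6.06 in batch 1, all below the floor, between 6.21 and 7.84 in batch 2, and at 10.03, 10.17, 10.38 and 10.35 in batch 3. Rps16 stood between 5.74 and 6.88 in batch 1 and between 6.27 and 7.21 in batch 2, all below the floor, and at 10.02, 10.50, 10.13 and 10.18 in batch 3.

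**Figure D4:**
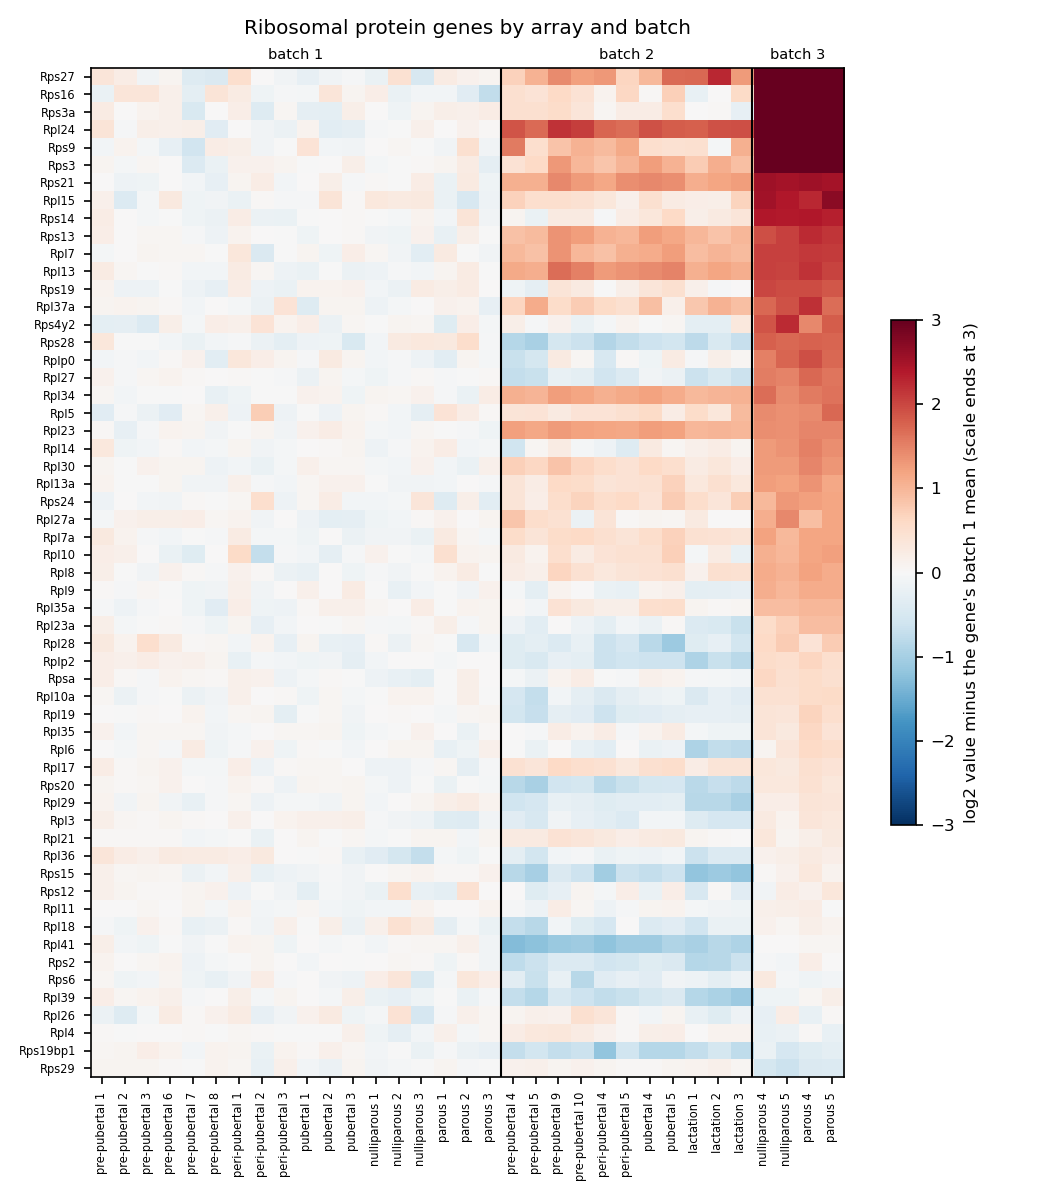
Log2 value minus the gene's mean over batch 1 arrays (colour, red higher and blue lower) for all 57 ribosomal protein genes (rows, ordered by batch 3) in the 33 arrays (columns, ordered by batch and stage, black lines between batches). The batch 3 columns are red for nearly all genes, up to beyond 3, while batch 2 holds both red genes such as Rpl24 and blue ones such as Rpl41.

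Over the 46 members that pass without batch 3, the median difference was 1.55 for 13 genes of the small subunit and 0.75 for 32 of the large one. The difference between the subunits was not tested. The genes with falls were Rps29, which stood between 13.31 and 13.69 in batch 1 and at 13.00, 12.89, 13.09 and 13.12 in batch 3, and Rps19bp1. Rps29 fell by 0.48 ± 0.056 (SE, limma adjusted p = 5.4e-09), and its 2 other probe sets were lower as well. Rps19bp1 fell by 0.21 (limma adjusted p = 0.035) and lost the call when 1 of 5 adult arrays was left out and after centring. By their mean level in batch 1, members from 8 to 10 had a median of 2.63 (6 genes), those from 10 to 12 of 1.37 (17 genes) and those above 12 of 0.45 (21 genes). All tested genes in the same ranges had medians of -0.27, -0.59 and -0.25. Of the 9 members below 8, 7 passed only through batch 3, and the other 2 had a median of 0.98.

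**Figure D5:**
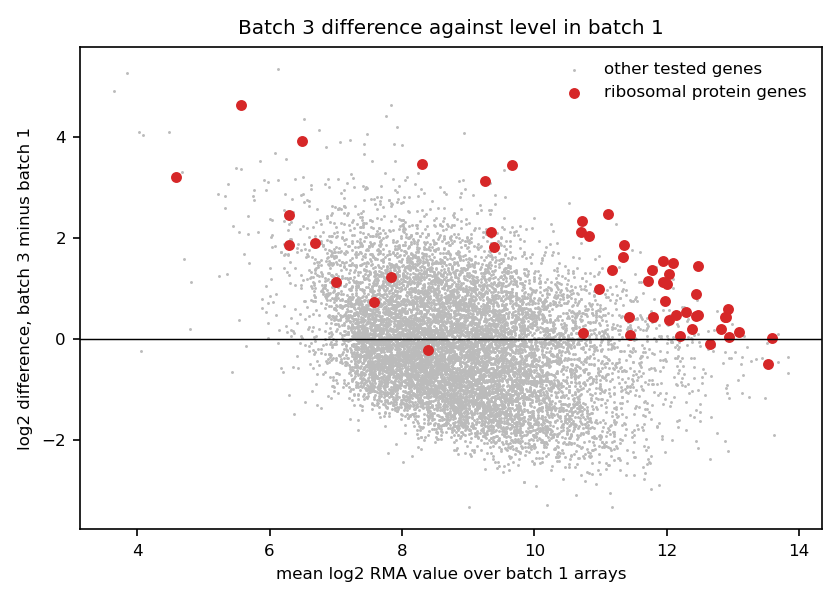
Log2 difference of batch 3 minus batch 1 (vertical axis, fitted with stage terms) against the mean log2 RMA value over batch 1 arrays (horizontal axis) for each of the 10986 tested genes; ribosomal protein genes are red and other genes grey. Most red points lie above the grey ones of the same level, with medians of 1.37 against -0.59 between 10 and 12.

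Related lists were counted in batch 3 beside all tested genes, of which 33% rose and 44.4% fell. Of 26 mitochondrial ribosomal proteins 22 rose and 3 fell (median 1.20), with rises of Mrps33 and Mrps23, and of 17 elongation and TOP genes 14 rose and 3 fell (median 1.09), with rises of Eif3m and Naca. Of 51 biogenesis factors 30 rose and 14 fell (median 0.44). Of 25 mTORC1 genes 5 rose and 13 fell (median -0.53), with falls of Eif4ebp2 (-2.25) and Tsc1. Synthetases had 5 rises and 8 falls of 19. Fau rose by 2.89, and the copies and paralogs of the members had 57 rises and 5 falls of 67. The low-value filter counts the batch 3 arrays for these lists too. Genes that passed only through batch 3 had to be high there. They were not left out of these lists or of all genes, so the counts of rises partly follow from the filter. Of the marker lists, 8 of 10 for fibroblasts, 6 of 8 for endothelium and 9 of 15 for adipocytes fell in batch 3. Other marker lists did not go 1 way: luminal markers had 5 rises and 7 falls of 18. None of 9 B cell markers was called, and of 8 milk protein genes 1 rose and none fell. Whether cell content, kit or array run goes with the ribosomal protein values in batch 3 was not tested, and the labels place all of them in the same 4 arrays.

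Batch 2 split the members. Against batch 1, 27 rose and 17 fell, while 21.4% of all genes rose and 35.2% fell, with medians of 0.18 and -0.08. Without the 7 members that pass the filter only through batch 3, 21 of 46 rose and 17 fell, and the median was 0.05. Rpl24 stood between 9.33 and 10.05 in batch 1 and between 11.34 and 11.83 in batch 2, and rose by 1.89 ± 0.074 (SE, limma adjusted p = 3.1e-18). In batch 3 it stood at 13.28, 13.02, 13.11 and 13.26. Its 3 batches did not overlap. Rpl13 rose by 1.38 and Rps21 by 1.30. Rpl41 stood between 13.46 and 13.77 in batch 1 and between 12.28 and 12.76 in batch 2, and fell by 1.11 ± 0.046 (SE, limma adjusted p = 1.0e-17). In batch 3 it was back at 13.61, 13.61, 13.64 and 13.65. The other Rpl41 probe set, with a mean of 9.04, was higher by 2.31 in batch 2 and by 5.27 in batch 3, so the direction for Rpl41 depends on the probe set. Rps19bp1 fell by 0.83 and Rps20 by 0.72. Of the 17 members with several probe sets, all probe sets of a gene lay on the same side in 12 for batch 2, and all were higher in batch 3 in 16.

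Stage differences were compared between batches where both hold the 2 stages. No member passed an interaction test by limma for day 42 against day 21 or day 63 against day 42 in batches 1 and 2, or for parous against nulliparous in batches 1 and 3, and 0% of all genes did in each. At an unadjusted p under 0.05 there were 1, 1 and 7 members, and 2.22%, 2.78% and 2.06% of all genes. Among the 7, chosen here after their values were seen, Rpl18 differed by -0.46 in batch 1 and 0.05 in batch 3 (unadjusted p = 0.0087, limma adjusted p above 0.99). Its parous arrays of batch 1 stood at 11.94, 12.15 and 12.01 and its nulliparous ones at 12.35, 12.66 and 12.47, without overlap.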

How the data were processed

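RNA of each gland sample was measured on 1 Affymetrix array. The authors deposited log2 values for 36685 probe sets. Affymetrix Expression Console and its RMA method made them, per the submitters' processing notes, so background correction and normalization between arrays came before every step here. No program version or genome build is given in these sources. The 33 columns held values from 2.405 to 14.228 with 0 missing, and no 2 arrays were identical. The table has no detection calls, and the number of arrays limits the precision.

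The platform annotation gave 1 symbol to 18511 probe sets, several to 575 and none to 17599. Of the 18511, 18394 matched the RefSeq table (GRCr8) by identifier. That table served for names and start sites only. Genes above 7.645 in at least 3 arrays were tested (10986). One model per gene over all arrays, with 6 stage and 3 batch terms (25 residual degrees of freedom), was fitted with limma 3.58.1 in R 4.3.3, with an intensity trend. Tests were two-sided, adjusted by Benjamini-Hochberg over all tested genes and called under 0.05; "rose" and "fell" mean called. The script was tested on simulated data. Comparisons share arrays and are not independent.

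Members and lists were chosen with earlier results of these data known. Named members are the 3 largest rises and falls called in each comparison, the 4 smallest and 4 largest stage p values, the 2 highest and 2 lowest means, those that failed the filter, and a panel of 16 genes; of other lists, up to 2 called genes of smallest adjusted p per comparison, and every measured paralog. Alternatives were other filters, scalings, batch terms, probe set rules, single batches, marker means as covariates, a wider or narrower gene set and each array left out. Using only members that pass the filter without batch 3, choosing probe sets by their batch 1 mean, and giving medians relative to all genes were added after seeing the data. Figures used matplotlib 3.10.9.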

Additional observations from a re-analysis of the deposited data

Results flagged for a closer look

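Of 55 stage groups of 4 to 10 arrays checked for 11 member items after removing the batch terms, 3 had 1 array far from the rest, where chance gives about 1 in 20. Pubertal array 3 was low in Rplp2, at 12.02 with the others between 12.16 and 12.19, a gap of 0.801 of the group's range. Nulliparous array 3 was high in Rpl30, at 11.91 with the others between 11.69 and 11.72, a gap of 0.882 of the range. Pre-pubertal array 5 was low in Rpl36, at 11.92 with the others between 12.20 and 12.50, a gap of 0.478 of the range.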

How the results depend on the processing

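Over 19 alternatives, 247 of 282 member counts and medians stayed within the limits set for them, and of 318 values for named members 287 kept direction and call, 29 lost the call and 2 reversed. Of these 2, Rpl39 in nulliparous against pubertal glands was 0.000784 without a batch term, and Rpl41 in batch 2 was 0.600 with the mean of its probe sets, since they disagree. No paired analysis was possible because the labels give no replicate number shared across stages. Without a batch term, 0 members were called for day 42 against day 21, 1 for nulliparous against pubertal (median 0.270) and 6 for lactation against pubertal, and the median for parous against lactation was 0.442. Batch 1 alone gave 1 call at day 42, 1 in nulliparous rats (median 0.00607), 7 by stage, and a median of -0.0264 at day 63. Batch 2 alone gave 0 calls at day 42, 11 by stage, and a median of 0.145 at day 63. Nulliparous calls were 2 after quantile normalization and 2 without batch 3. Day 42 calls were 1 with the B cell covariate, under which parous against lactation had a median of 0.0562, and 0 with the luminal covariate. Centring gave medians of -0.0744 for lactation and 0.0501 for parous against lactation. The batch 2 median was 0.0971 with the stricter filter, 0.259 after centring, 0.0483 without members that pass only through batch 3 and 0.257 relative to all genes. The batch 3 median was 0.999, 1.29, 0.821 and 1.30 in the same order, 1.01 after quantile normalization and 1.23 with the mean of probe sets. With symbols ending in l included, 106 genes were tested and 47 were called in lactation, 38 in parous against lactation, 85 and 97 in batches 2 and 3, and 45 by stage. For these settings the cause was not tested beyond their own construction. The shares of all genes called in refitted models are not given in this section. Leaving out each array in turn gave 0 to 2 calls at day 63, 2 to 4 in nulliparous rats, 14 to 22 in lactation, 9 to 13 in parous against lactation and 15 to 20 by stage.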
